A study of Mus musculus with 4 samples.

Results

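In mouse female germ cells, 964 open chromatin regions away from gene ends had a peak in every library and covered more bases in both libraries of the Snf5 conditional knockout (Snf5 CKO) than in both Control libraries. Chromatin accessibility was measured by ATAC-seq, where open DNA is found by the places a transposase can reach and tag, and the deposited files are broad peak lists, 1 for each of 4 libraries. The 4 lists merged into 62815 regions on chromosomes 1 to 19, of which 18408 had a peak in all 4 libraries and 7876 of those lay over 1 kb from every start and end of a protein-coding gene. These 7876 are called kept distal regions below. The 964 members, 12.2% of them, were chosen by the measured widths themselves: the number of bases covered by peaks within the merged region had to be higher in both Snf5 CKO lists than in both Control lists. The opposite order, lower in both Snf5 CKO lists, held for 3075 regions (39.0%), and 3837 regions had neither order. Widths and every other measure from the peaks of these regions are therefore given as a description, with no test.

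All 4 libraries came from E15.5 female embryos of strain C57BL/6, and in all of them germ cells had been sorted by an Oct4-EGFP reporter, in which the promoter of a pluripotency and germ cell gene drives green fluorescent protein. The Control and Snf5 CKO groups had 2 libraries each, called Control 1, Control 2, Snf5 CKO 1 and Snf5 CKO 2. The labels give the genotypes as Control and Snf5 CKO. They name no allele, Cre driver or cells in which it acts, and leave unsaid whether replicates were separate animals or pools, so the spread between replicates may be technical.

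Snf5, made from the gene Smarcb1, belongs to the core of SWI/SNF, a complex that uses ATP to slide or evict nucleosomes and so opens promoters and enhancers. Distal open regions are often enhancers, short stretches bound by transcription factors that act on genes at a distance. At E15.5 the germ cells of a mouse ovary are in prophase of the first meiotic division, after the genes of pluripotency have been turned down and those of meiosis turned on. In a peak list, a wider peak means that signal over the local background reached farther along the DNA at the caller's threshold.

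The lists held 28625 to 45422 peaks over 16.9 to 27.4 Mb, with Snf5 CKO 2 the lowest on both measures, and read depth is unknown. Of 6 germ cell markers (Ddx4, Dazl, Pou5f1, Dppa3, Mael, Sycp3), 6 had a peak within 1 kb of a gene end in every library, as did 3 of 4 markers of ovarian supporting cells. Stromal markers had a peak at 2 of 3 genes in both Control libraries and in Snf5 CKO 1, and at 0 in Snf5 CKO 2. Of 4 endothelial and blood markers, 2 had a peak in Control 1 and 1 in each of the other libraries. The part of other cells in the results below was not tested. Smarcb1 had a peak at a gene end in both Control libraries and in neither Snf5 CKO library.

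No mm10 genome was used here, so the sequence of a member can be shown only where a RefSeq transcript-start window (250 bases before to 50 bases after an annotated start, GRCm38.p6, the assembly behind mm10) overlapped it. Such windows touched 33 of the 939 members on the 18 chromosomes in the table. The 4 windows below were picked after their values were seen, because the added width runs across an annotated start or its upstream bases. They are written 5′ to 3′ on the strand of the transcript, and capitals mark bases covered by peaks in both Snf5 CKO lists and in neither Control list. The window of Abcg2, an efflux transporter, is at chr6:58596422-58596721 on the + strand. That of Gm52564, a long non-coding RNA, is at chr2:154426351-154426650 on the + strand. Fam169b and the long non-coding RNA Gm16157 share 1 member, and their windows are at chr7:68275734-68276033 on the + strand and at chr7:68276545-68276844 on the - strand.
Abcg2: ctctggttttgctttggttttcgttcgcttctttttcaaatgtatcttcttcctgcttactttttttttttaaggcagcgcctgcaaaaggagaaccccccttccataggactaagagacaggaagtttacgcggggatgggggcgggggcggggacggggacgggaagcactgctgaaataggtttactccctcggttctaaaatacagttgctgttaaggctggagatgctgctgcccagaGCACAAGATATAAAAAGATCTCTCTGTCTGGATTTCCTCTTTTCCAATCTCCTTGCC
Gm52564: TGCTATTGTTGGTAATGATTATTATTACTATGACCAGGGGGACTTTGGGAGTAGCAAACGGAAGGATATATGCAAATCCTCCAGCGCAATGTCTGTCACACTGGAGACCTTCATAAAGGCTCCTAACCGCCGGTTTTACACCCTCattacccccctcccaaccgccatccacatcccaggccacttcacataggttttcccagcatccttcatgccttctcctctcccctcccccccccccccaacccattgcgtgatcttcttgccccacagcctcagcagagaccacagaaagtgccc
Fam169b: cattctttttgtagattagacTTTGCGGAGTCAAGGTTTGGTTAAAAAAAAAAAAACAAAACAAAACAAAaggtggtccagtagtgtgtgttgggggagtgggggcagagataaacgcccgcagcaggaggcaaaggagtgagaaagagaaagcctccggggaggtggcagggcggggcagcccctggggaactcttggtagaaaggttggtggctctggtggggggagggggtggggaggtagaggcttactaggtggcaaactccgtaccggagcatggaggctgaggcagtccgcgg
Gm16157: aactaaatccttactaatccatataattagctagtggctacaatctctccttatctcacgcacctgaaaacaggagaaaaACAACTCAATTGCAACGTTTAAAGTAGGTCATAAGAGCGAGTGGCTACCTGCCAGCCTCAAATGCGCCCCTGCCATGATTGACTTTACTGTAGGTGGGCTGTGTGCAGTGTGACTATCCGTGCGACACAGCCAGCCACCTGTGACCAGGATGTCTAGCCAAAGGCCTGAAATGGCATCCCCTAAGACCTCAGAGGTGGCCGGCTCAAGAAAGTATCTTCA
In the Abcg2 window, 57 bases were covered in Snf5 CKO only. They take in the 50 bases downstream of the annotated start, with a TATAAA inside those 50. In the Gm52564 window the 145 such bases are the 5′ part, upstream of the start. The 220 capitals of Gm16157 and the 49 of Fam169b lie toward opposite ends of the same region, which was wider on both sides. The Abcg2 member (chr6:58595016-58596749, inside the gene) had 428 covered bases in Control 1 and 430 in Control 2, against 1726 in Snf5 CKO 1 and 712 in its replicate Snf5 CKO 2. For the Gm52564 member (chr2:154426119-154427280, 8818 bp from an end of Cbfa2t2) the values in the same order were 432, 279, 963 and 1066 bp. Those of the Fam169b member (chr7:68275561-68276765) were 537, 634, 1204 and 1011 bp. In each of the 3 regions the lower Snf5 CKO value was over 1.5 times the higher Control value, the step used here to order the members and called the ratio.

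Medians of covered bases across the 964 members were 416 in Control 1 and 410 in Control 2, against 656 in Snf5 CKO 1 and 587.5 in its replicate Snf5 CKO 2. The mean of the medians was 413 ± 4.24 bp (SD, n = 2) in Control and 622 ± 48.4 bp (SD, n = 2) in Snf5 CKO. In the other 6912 kept distal regions it was 716 ± 33.2 bp (SD, n = 2) and 562 ± 86.3 bp (SD, n = 2). The members' median was thus below that of the rest in both Control libraries, and above it in both Snf5 CKO libraries, at 656 against 623 bp and 587.5 against 501 bp. Quartiles of the members ran from 277.75 to 598.5 bp in Control 1 and from 472.75 to 869.25 bp in Snf5 CKO 1. Added over all members, peaks covered 462 kb in either Control list, 679 kb in Snf5 CKO 1 and 621 kb in Snf5 CKO 2. The shortest peak in any list was 200 bp, a length held by 36 members in Control 1 and 32 in Control 2. By the rule no member can have it in a Snf5 CKO list, where both values must pass the higher Control value. Of the other kept distal regions, Control 1 gave 45 at this length and Control 2 gave 65. There the Snf5 CKO lists gave more, 71 for replicate 1 and 231 for replicate 2. The 2 Control libraries split the members evenly, with Control 1 the wider in 489, Control 2 in 455 and no difference in 20. Snf5 CKO 1 was wider than Snf5 CKO 2 in 640 members (66.4%), a share close to the 69.9% in the rest of the kept distal regions.

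**Figure D1:**
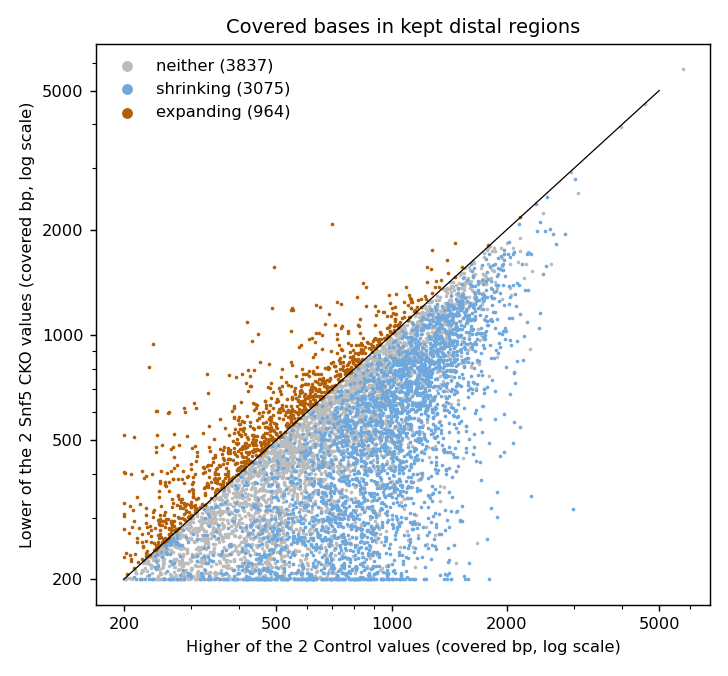
Each point is a kept distal region, with the higher of its 2 Control values on the x axis and the lower of its 2 Snf5 CKO values on the y axis, in covered bp on log scales; the line marks equal values. The 964 expanding regions lie above the line by construction, most of them close to it, and the 3075 shrinking and 3837 other regions lie on or below it.

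The group means moved more than the nearest values did. As a log2 ratio of the Snf5 CKO mean to the Control mean, the median change in covered bases was 0.45 in the members and -0.22 in the other kept distal regions. Between the nearest values of the groups, the median ratio was 1.12 and the median margin, the lower Snf5 CKO value less the higher Control value, was 60 bp (quartiles 23 and 118 bp, range 1 to 1369 bp). The ratio reached 1.1 in 536 members (55.6%), 1.2 in 310 (32.2%), 1.5 in 96 (9.96%) and 2 in 27 (2.80%). A margin of 10 bp or less was all that placed 132 members. Just inside the threshold lay regions at Fam241a (783, 328, 784 and 938 bp), Cnot6l (1448, 1462, 1464 and 1522 bp) and Acer2 (496, 635, 895 and 636 bp). Just outside it, with equal values, lay regions at Tcea1 (228, 215, 255 and 228 bp) and Ccdc85a (328, 200, 654 and 328 bp). The members nearest the threshold thus had Control and Snf5 CKO widths that met, and some of them had 1 library far from the others. The count itself rests on having 2 libraries a side: with 1 library left out it was 2711 without Control 1 (28.5% of the regions then kept), 1862 without Control 2 (22.0%), 2851 without Snf5 CKO 2 (28.5%) and 1312 without Snf5 CKO 1 (15.9%). With a −log10 q of at least 3 asked of every library it was 487 (9.77%), and with the lists cut to the 28625 strongest peaks each it was 639 (10.8%).

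Most added bases lay at the edges. Bases covered in both Snf5 CKO lists and in neither Control list summed to 86.5 kb in the members. Of these, 94.7% were outside the outermost edges of the Control peaks, against 87.6% in the other kept distal regions and 92.3% in all. Such bases can lie between Control peaks only where those leave a gap. More than 1 peak was held by 17 members in Control 1 and 29 in Control 2, so a high share outside was largely set in advance. The side toward lower coordinates held 39.0 kb and the other side 42.9 kb. Bases between Control peaks, of 1 list or of the 2 lists together, came to 4.61 kb in 28 members. In 203 members (21.1%) both Snf5 CKO peaks reached beyond both Control peaks at both edges, in 620 (64.3%) at 1 edge, and in 141 (14.6%) at no edge. There was no base of this kind in 126 members, in which the Snf5 CKO peaks were the longer without a stretch that both shared and both Control peaks lacked. More than 1 peak in some library was seen in 64 members (6.64%), against 568 (8.22%) of the other kept distal regions.

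The largest ratio was that of a region 32351 bp from an end of the gene model Gm46608 (chr17:10355762-10356897). It had 200 covered bases in Control 1 and 239 in Control 2, against 1126 in Snf5 CKO 1 and 943 in its replicate Snf5 CKO 2, a ratio of 3.95, and the new bases lay on both sides, 281 bp on the lower and 323 bp on the higher. Next came a region inside Ank3 (chr10:69925299-69926186), the gene of the membrane scaffold ankyrin-G, with 201, 233, 888 and 807 bp in the same order of libraries. The Control and Snf5 CKO values in both regions stood far apart, with each pair of replicates close together. The Control values were near 200 bp, the length of the shortest peak in any list. Their −log10 q was low, 1.97 and 1.55 at Gm46608 and 1.91 and 2.36 at Ank3, where the lowest in either Control list was 1.01. Whether the close Control replicates and the large ratios reflect that floor was not tested. A region 25656 bp from Prex2 (chr1:11329339-11331125), which encodes an exchange factor for the GTPase Rac, covered 316, 494, 1643 and 1560 bp, and its 1222 added bases lay on the higher side alone. A region 5364 bp from Gdi2 (chr13:3530264-3532711), a regulator of Rab GTPases, covered 211, 701, 2448 and 2070 bp and had the largest margin of all members, 1369 bp. Here the 2 Control values were far apart, and Snf5 CKO 2 held 2 peaks rather than 1.

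Of the 3 kept distal regions of Epp13, 2 shrank. The one that was a member (chr7:6258097-6259367) was wider at both edges and between Control peaks. It held 1 peak of 200 bp in Control 1, 2 peaks covering 486 bp in Control 2, and single peaks of 1271 and 1195 bp in Snf5 CKO, with 244 added bases lying between the Control peaks, 261 on the lower side and 204 on the higher. A region 76255 bp from 1700001O22Rik (chr2:30718028-30719308), chosen after its values were seen, covered 579, 561, 1249 and 936 bp and had 354 added bases between Control peaks and none at either edge. A region 82338 bp from Wrn, the gene of a RecQ helicase, went from 330 and 260 bp in Control to 841 and 774 bp in Snf5 CKO. The other members among the 12 highest ratios lay at Sall4, Banf2, Tmem123, Ifna13, Tmtc2 and Col12a1. Their Control values ran from 200 bp, the length of the shortest peak in any list, to 419 bp. Snf5 CKO values there ran from 510 to 1408 bp. By margin rather than ratio, regions inside Cnn3 (550, 412, 1219 and 1194 bp), Myo10 (441, 548, 1195 and 1181 bp) and Slco5a1 (536, 552, 1178 and 1392 bp) and a region 18333 bp from Odf1 (635, 546, 1567 and 1217 bp) joined the 10 largest. Cnn3 encodes an actin-binding calponin and Myo10 a motor of filopodia. Of the 12 members with the highest ratios 2 lay inside a protein-coding gene, and of the 10 with the largest margins 5 did.

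**Figure D2:**
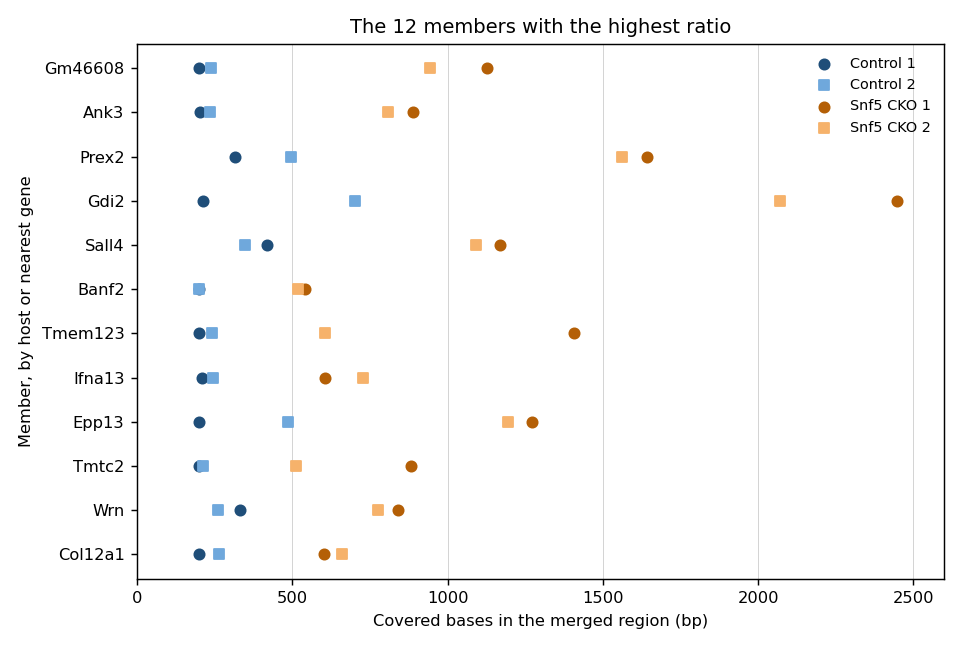
Covered bases (bp, x axis) in each of the 4 libraries for the 12 members with the highest ratio, named by host or nearest protein-coding gene (y axis); circles are replicate 1 and squares replicate 2, blue for Control and orange for Snf5 CKO. All Control values are at or under 701 bp and all Snf5 CKO values at or over 510 bp, with the groups apart in each row by the rule.

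Fold is the signal over the local background as the authors' peak caller gave it, which for a broad peak is a mean over the length of the peak and not its height. Its median in the members was 4.02 and 4.01 in Control and 4.60 and 4.30 in Snf5 CKO, and in the other kept distal regions 4.26 and 4.20 against 4.62 and 4.42. Fold was higher in both Snf5 CKO lists than in both Control lists for 407 members (42.2%), where 39.5% of all kept distal regions had that order. It was lower in both for 76 members (7.88%), against 10.9% of all kept distal regions, and 481 members had neither order. Both shares were within a few percentage points of those over all kept distal regions. A fold from 1 list is not on the same scale as a fold from another. In the Wrn region fold was lower where the peak was wider, with 6.32 and 5.12 in Control and 3.83 and 3.90 in Snf5 CKO. In the Gm46608 region fold went from 3.13 and 2.89 to 5.17 and 3.49.

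Members with the highest folds had small margins, with exceptions. In 770 members (79.9%) the lower of the 2 Snf5 CKO folds was between 3 and 5. In the 35 members where it was 8 or more, the median ratio was 1.02 and the median margin 5 bp, whereas the median ratio was 1.12 at folds of 5 to 8 and 1.13 at folds of 3 to 5. The highest ratio among the 35 was 1.49, in a region 49040 bp from Nfasc, which encodes a neuronal adhesion protein. It covered 311, 301, 490 and 462 bp, a margin of 151 bp, with folds of 11.1, 10.1, 10.6 and 9.68, and was chosen after its values were seen. The highest fold in a member was that of a region 105188 bp from Isl1 (chr13:116192801-116193082), which encodes a LIM homeodomain factor, with 15.3 and 15.0 in Control and 14.9 and 14.3 in Snf5 CKO. It covered 271, 270, 276 and 277 bp, a difference of 5 bp between the nearest values of the groups. The other members among the 10 chosen for fold (by the lower of the 2 Snf5 CKO values) lay at Plk2, G6pd2, Csmd1, Csmd3, Gphn, Tlcd4, Marcks, Bard1 and Cntnap5b. In these 10 members all 4 folds were between 10.2 and 15.3, all widths between 251 and 532 bp and all margins between 1 and 26 bp.

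Genes of pluripotency and primordial germ cells had 21 kept distal regions inside or nearest to them within 100 kb, and 5 of these (23.8%) were members, while 8 shrank. The share over all kept distal regions was 12.2%, and 5 regions are too few to set the list apart. Sall4 encodes a zinc finger factor needed in stem cells and primordial germ cells. Its 1 kept distal region, 39782 bp from the gene (chr2:168806983-168808152), had 419 covered bases in Control 1 and 346 in Control 2, against 1170 in Snf5 CKO 1 and 1090 in its replicate Snf5 CKO 2, with 695 added bases on the lower side and none on the higher. Nanog, a homeodomain factor of the pluripotent state, had 2 kept distal regions and both were members. That at chr6:122669421-122669777, 37712 bp away, covered 263, 277, 349 and 355 bp. That at chr6:122702226-122703233, 4256 bp away, covered 731, 458, 1007 and 849 bp, and its fold was 2.84 and 3.37 in Control and 5.22 and 5.26 in Snf5 CKO. By the rule, width is apart between the groups in every member. At both Nanog regions fold was also higher in both Snf5 CKO lists than in both Control lists. That order held for 39.5% of all kept distal regions. Sox2 encodes a partner of Oct4 and had 1 member among 3 kept distal regions, at chr3:34639269-34640318 and 9677 bp from the gene. It covered 524, 936, 1050 and 1004 bp, with Control 2 near the Snf5 CKO values and Control 1 far below. Its folds were 2.66, 3.06, 4.47 and 4.50. Lin28b, which blocks maturation of let-7 microRNAs, had a region 30587 bp away that covered 395, 404, 433 and 538 bp.

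The list of meiotic entry and its regulators had 16 kept distal regions, of which 4 (25%) were members and 8 shrank, beside 12.2% and 39.0% over all kept distal regions. With 16 regions the list is too small to set apart. The members lay at Msx1 and Msx2, homeobox genes that act downstream of BMP signals, and in Rarb, a receptor for retinoic acid. Both kept distal regions of Msx2 were members: the one 4065 bp away (chr13:53461970-53462816) covered 512, 442, 692 and 723 bp, and the one 2888 bp away (chr13:53475668-53476704) covered 623, 928, 971 and 933 bp. The second passed by 5 bp. The Msx1 region, 2149 bp from the gene (chr5:37826734-37827067), covered 246, 256, 317 and 312 bp, and the Rarb region (chr14:16974092-16974589) covered 299, 299, 469 and 323 bp. Replicates were within 10 bp of each other in each group at Msx1, whereas at Rarb only Snf5 CKO 1 stood well away from Control. Rarb had 4 kept distal regions, of which 3 shrank. Among 7 kept distal regions of synaptonemal complex, cohesin and axis genes, 1 was a member. It lay 20435 bp from Wapl, which releases cohesin from chromosomes, and covered 207, 200, 325 and 343 bp, with folds of 3.06 and 3.29 in Control and 5.83 and 5.95 in Snf5 CKO. The recombination list had 5 kept distal regions, none of them a member and all of them among the regions that shrank, where 39.0% of all kept distal regions shrank; 5 regions are too few to set that list apart. In the germline genome defence list 1 of 15 regions (6.67%) was a member and 9 shrank. That member, in Morc1, a repressor of transposons in germ cells, passed by 3 bp with 204, 204, 235 and 207 bp.

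**Figure D3:**
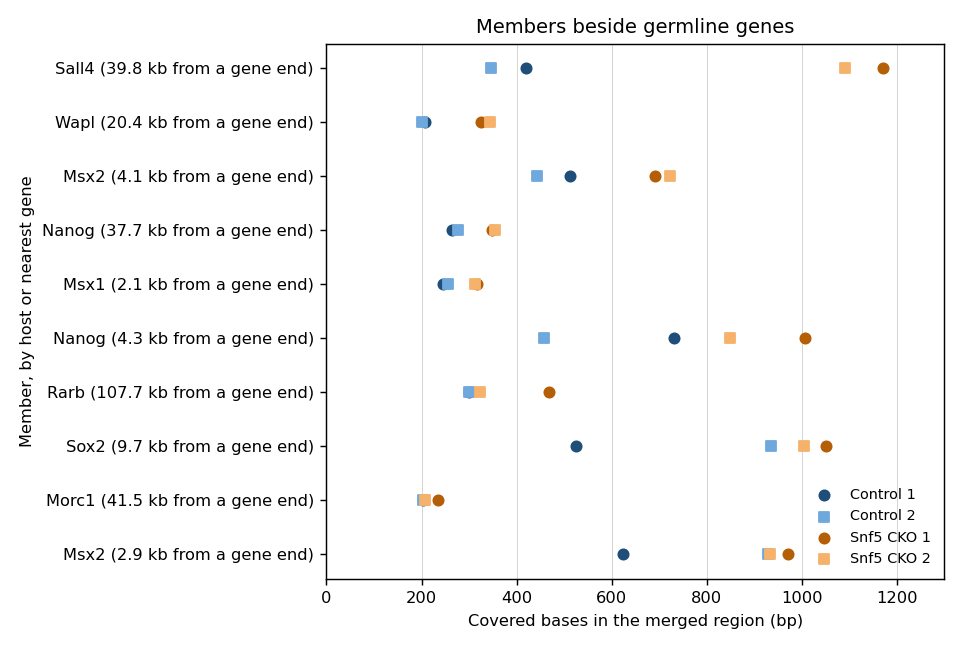
Covered bases (bp, x axis) in each of the 4 libraries for the members at genes of the meiotic entry, synaptonemal complex, germline defence and pluripotency lists (up to 4 a list, by ratio), named with the distance to the nearest protein-coding gene end (y axis); circles are replicate 1 and squares replicate 2, blue for Control and orange for Snf5 CKO. The Sall4 region stands apart with Control at 419 and 346 bp and Snf5 CKO at 1170 and 1090 bp, and the second Msx2 region and the Morc1 region have values that nearly touch.

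Across all 19 gene lists, 40 of 344 kept distal regions (11.6%) were members and 143 (41.6%) shrank, shares close to the 12.2% and 39.0% over all kept distal regions. There was no member among the 19 regions of retinoic acid and BMP signalling genes, the 17 of endothelium and blood, the 11 of male germ cell genes, the 6 of oocyte growth and the 4 of Hox genes. Among forkhead, SOX, T-box and GATA genes 8 of 49 regions (16.3%) were members. A region inside Sox12 covered 200, 201, 497 and 404 bp, and a region 67937 bp from Sox13 covered 625, 645, 1352 and 1014 bp. The Sox12 and Sox13 regions had a clear distance between groups, while those of Sox5 (975, 937, 1098 and 1048 bp), Tbx18 (762, 410, 793 and 839 bp) and Tbx2 (469, 427, 701 and 478 bp) had little. The Gata5 region, 4470 bp from that gene of a zinc finger factor, covered 212, 231, 346 and 271 bp and had folds of 4.21 and 3.55 in Control and 10.1 and 5.73 in Snf5 CKO. Of SWI/SNF subunit genes 2 of 20 regions (10%) were members. The one in Arid1b, which encodes a DNA-binding subunit of the complex, covered 264, 403, 473 and 472 bp and had folds of 3.75, 3.69, 6.93 and 6.93.

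Among 21 regions of AP-1, immediate early and p53 genes, 3 were members. The region 1943 bp from Egr3, an immediate early zinc finger gene, covered 309, 212, 792 and 619 bp, and that in Egr2 covered 428, 502, 567 and 541 bp. The groups stood well apart at Egr3 and by 39 bp at Egr2. In the Hippo list 2 of 11 regions were members, and the one in Yap1, the transcriptional effector of that pathway, covered 307, 291, 588 and 480 bp. Wnt genes had 3 members of 29 (10.3%), at Rspo2, Tcf7l1 and Lgr4. Adhesion and axon guidance genes had 9 of 68 (13.2%), with the widest ratio at Ctnna2 (351, 453, 837 and 959 bp), which encodes a neuronal catenin. Of genes that mark other cells of the ovary, the supporting cell gene Lhx9 had a member with 855, 765, 926 and 925 bp. The mesenchymal gene Gli2 had a member with 200, 200, 304 and 278 bp, and 2 of its 4 kept distal regions shrank. Kdm2b, which recruits Polycomb to CpG islands, had a member with 267, 209, 617 and 285 bp, where Snf5 CKO 1 alone was far from Control. Of the 3 kept distal regions of Kdm2b, 2 shrank.

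Members were spread over many genes. With a limit of 100 kb, 643 members had a host or nearest protein-coding gene and 321 had none. Of all 7876 kept distal regions, 6456 had such a gene, at 4716 genes, and 1420 had none, a smaller share than in the members. The 643 members were shared among 604 genes. Of those genes 564 had 1 member, 37 had 2, and 3 had 3 (Med30, Agbl4 and 1700001O22Rik). Med30 encodes a subunit of the Mediator complex, and 3 of its 4 kept distal regions expanded, the widest from 441 and 221 bp to 739 and 488 bp. Both of 2 kept distal regions were members at Sp5, Oprm1, Bard1 and Zfr as well as at Nanog and Msx2, and also at further genes not named here. Pim1, a serine kinase gene, had 2 members among 3 regions, of which one 22897 bp away covered 214, 332, 682 and 689 bp. Chd7, a chromatin remodeller gene, had 2 among 4, of which one 52839 bp away covered 490, 857, 1698 and 1372 bp. These genes other than Nanog, Msx2 and Bard1 were chosen after their values were seen. The nearest other member lay a median of 719 kb away, and 127 members (13.2%) had another within 100 kb, against 10.6% of all kept distal regions with a member other than themselves in that range. Regions with peaks in both Control and neither Snf5 CKO list (lost) lay a median of 427 kb from members and 180 kb from all kept distal regions. For regions with the reverse pattern (gained) the medians were 249 and 250 kb.

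Few of the gene ends beside members expanded. Of the 604 genes, 343 had a kept region within 1 kb of an end, 355 regions in all. Of these, 274 (77.2%) shrank and 4 (1.13%) expanded, where 77.4% of all kept regions near gene ends shrank and 1.39% expanded. The genes of all kept distal regions gave 75.8% shrinking. The 4 that expanded lay at Gabrb1, a receptor subunit for GABA (863, 735, 1005 and 883 bp), Gm40365 (560, 554, 722 and 694 bp), Nlrp12 (271, 317, 353 and 411 bp) and Tbc1d32 (482, 643, 664 and 684 bp). They were named after their values were seen. The shares at the genes of members were thus close to those over all kept regions near gene ends.

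Members lay at all distances from gene ends, and distance to an end is also counted for regions inside a gene. The median distance to the nearest end of a protein-coding gene was 57.7 kb (quartiles 13.3 and 209 kb), against 20.5 kb (6.16 and 77.6 kb) for the other kept distal regions and 12.1 kb for the shrinking ones. Among members 370 (38.4%) were over 100 kb away, against 21.2% of the others, and 194 (20.1%) were within 10 kb, against 35.1%. By distance the share of kept distal regions that expanded went from 6.01% at 1 to 5 kb through 10.7% at 10 to 50 kb to 19.5% at 100 to 500 kb and 22.4% beyond 500 kb. The share that shrank went from 56.6% to 10.6% over the same classes. At 100 to 500 kb the shares were near each other, 19.5% and 18.2%. Distance also varied with width in Control. Under 300 bp in Control, the class with the most members (252), the medians were 33.8 kb in members and 29.3 kb in the others, and at 300 to 400 bp they were 79.2 and 22.8 kb. With the ratio held to at least 1.5, chosen after seeing the data, the median distance of the 96 members left was 32.9 kb, against 22.7 kb for the rest. The 95% interval of the members' median was 18.3 to 66.0 kb there, which holds the value of the rest.

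**Figure D4:**
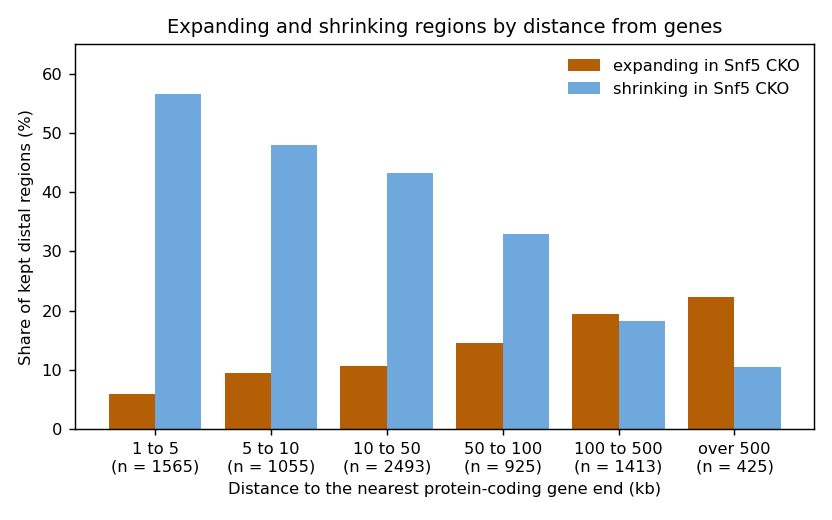
Share of kept distal regions (%, y axis) that were wider in both Snf5 CKO libraries (orange) or narrower in both (blue) than in both Control libraries, by distance to the nearest protein-coding gene end in kb (x axis, with the number of regions). The orange bars go from 6.01% to 22.4% and the blue bars from 56.6% to 10.6% with distance.

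Inside a protein-coding gene, between its ends, lay 266 members, or 27.6% (exact 95% binomial interval 24.8% to 30.5%). Of the other kept distal regions 48.8% did (47.6% to 50.0%), and of the shrinking ones 60.5%. The intervals cover counting error only and treat regions as separate units, which neighbours are not. The gene table used gives no exons, so exon and intron cannot be told apart. Control width, which the rule used, went with membership: 32.2% of regions under 300 bp in Control expanded and 2.12% of those at 1000 bp or more. In each class of Control width the share inside genes was lower in the members than in the others: 35.3% against 40.0% of the others under 300 bp, 26.1% against 40.1% at 500 to 700 bp, and 18.4% against 63.7% at 1000 bp or more, the last over 38 members. By distance, the shares inside genes were 40.4% in members and 71.8% in the others at 1 to 5 kb, 15.6% and 30.7% at 100 to 500 kb, and 6.32% and 6.06% beyond 500 kb, so the lower share in members was not seen in the farthest class. By Control fold the share that expanded had no steady order: 11.8% under 3, 15.2% at 3 to 4, 12.2% at 4 to 5, 6.09% at 5 to 6, 9.23% at 6 to 8 and 9.33% at 8 or more. By chromosome the share that expanded ran from 7.07% on chromosome 19 (13 of 184) and 7.37% on chromosome 11 (28 of 380) to 15.8% on chromosome 10 (61 of 387).

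**Figure D5:**
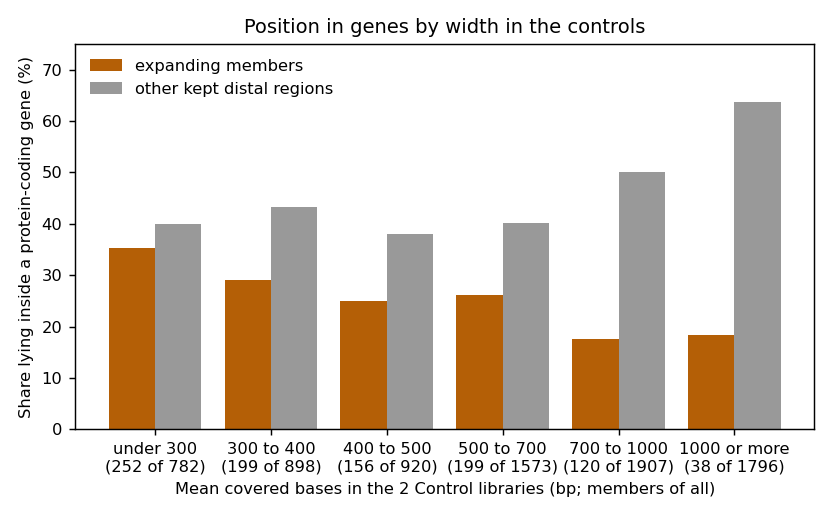
Share of regions lying inside a protein-coding gene (%, y axis) for members (orange) and the other kept distal regions (grey), by mean covered bases in the 2 Control libraries (x axis, bp, with members of all regions in the class). The orange bar is the lower in each class, with 35.3% against 40.0% in the narrowest and 18.4% against 63.7% in the widest.

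Few members overlapped a transcript-start window. Such a window, whose start itself can lie outside the region, overlapped 33 of 939 members (3.51%), against 1214 of 6684 other kept distal regions (18.2%) on the same chromosomes. Of the 33, 16 overlapped a window of a protein-coding gene and 17 only windows of other genes. The 45 windows in members had a median GC content of 53% and 11 CpG, against 63.0% and 21 CpG in the 1563 windows of the other regions and 52.7% and 7 CpG in all 32851 windows of the table. Searched on both strands, CCAAT was in 51.1% of the windows in members, 33.9% of those in other regions and 37.4% of all. GGGCGG, the letters of a GC box, was in 40.0%, 66.3% and 35.7%. TATAAA was in 4.44%, 5.63% and 13.6%. TGANTCA, a loose form of the AP-1 letters, was in 4.44%, 4.73% and 7.81%, and CACGTG, the E-box letters, in 4.44%, 9.40% and 7.15%. Each 4.44% stands for 2 of the 45 windows in members. Windows of 1 gene overlap, and 4 of the 45 were those of Egr2. A match is a description of letters in the window only.

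An end of a gene that is not protein-coding lay within 1 kb of 78 members (8.09%), against 1030 of the other kept distal regions (14.9%). In the members these were 47 long non-coding RNAs, 13 tRNAs, 10 pseudogenes, 2 transcribed pseudogenes, 3 microRNAs and 3 snRNAs. Among the 1030 were 642 long non-coding RNAs, 185 pseudogenes, 58 tRNAs, 51 transcribed pseudogenes, 42 snRNAs and 31 microRNAs. Counted over all regions, tRNAs lay at 13 of 964 members and 58 of 6912 others. The microRNA Mir5103 lay inside a member 3046 bp from Ccdc115 (chr1:34432395-34433624), which covered 722, 581, 1155 and 974 bp and had folds of 3.19, 3.71, 4.82 and 4.81. Fold was higher there in both Snf5 CKO lists than in both Control lists, an order found in 39.5% of all kept distal regions. Width is apart in every member by the rule. Mir1897 lay 727 bp from the Sox2 member, and Mir3473c lay 347 bp from a member in Traf5 that covered 317, 314, 323 and 365 bp.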

How the data were processed

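ATAC-seq peak lists of 4 libraries were used. Per the submitters' processing notes, the build was mm10, and the tools, listed without their roles, were MACS2 2.2.7.1, Bowtie2 2.4.2, Trim Galore 0.6.5, Picard 2.25.2 and SAMtools 1.10. The labels give reads of 50 bp. Peaks were deposited separately for each library, with a score, a fold over the local background (a ratio), a −log10 p and a −log10 q per peak, all the authors' own values. Calling thresholds, duplicate handling and any shift of read ends were not given in the sources used here. No read counts were used, so depth is unknown and a width also depends on it.

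Peaks overlapping by at least 1 bp were merged with Python 3.11.15 and pandas 2.3.3, and the bases covered by each library's peaks were summed per region. A region's fold in a list was the highest among its peaks there. Genes were 21887 protein-coding genes of the RefSeq table for GRCm38.p6, of which a region took its host or, with none, the nearest within 100 kb. Of 556 genes in 19 lists, 553 were matched. The members and the lists were chosen with earlier results of these data known. Regions were named by a written rule: the 12 highest ratios, the 10 largest margins, the 10 highest folds in the weaker Snf5 CKO list, up to 4 members a gene list, 3 regions on either side of the threshold (1 of them is not reported here), genes with 4 or more members (there were 0) and up to 10 members near non-coding genes. Regions outside this rule are further list members and microRNAs, or are marked in the text as picked with values in view. With 2 libraries against 2 and a rule that used the widths, no test was run. The scripts were tested on simulated data. Alternatives were other merging, −log10 q, distance, ratio and width settings, lists of equal length, and each library left out.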

Additional observations from a re-analysis of the deposited data

How the results depend on the processing

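Of 12 alternatives, 11 were planned and 1, a ratio of at least 1.5, was chosen after seeing the data. In all 12 the members had a lower share inside genes and a longer median distance than the other kept distal regions. A positive median log2 ratio in all 12 is no check, because each setting kept only regions wider in Snf5 CKO than in Control. No paired analysis was possible because the results come from no test. Depth is unknown, and a width near the threshold cannot be told from a difference in depth.

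The number of members was 964. It was 487 at a −log10 q of at least 3 (482 of them members of the 964), 310 at a ratio of at least 1.2, 639 with lists of the same length (627 of them among the 964) and 96 at a ratio of at least 1.5. Leaving out a library gave 1312 to 2851. The median log2 ratio was 0.45 and became 0.36 with the q limit, 0.76 at 1.2 and 1.11 at 1.5, and 0.33 to 0.46 with a library left out. The share inside genes was 27.6%, and was 31.2% at a ratio of 1.5 and 29.6% to 33.8% with a library left out. The median distance was 57.7 kb, and was 73.5 kb over 5 kb from gene ends, 32.9 kb at a ratio of 1.5 and 40.6 to 51.9 kb with a library left out.

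The share of added bases outside the Control edges was 94.7%. It was 97.0% with the q limit, 94.4% over 500 bp from gene ends, 94.9% over 5 kb, 93.9% at a ratio of 1.2, 92.9% by the widest single peak, 94.4% with lists of the same length, 93.5% at a ratio of 1.5 and 93.6% to 96.4% with a library left out. The share with higher fold in both Snf5 CKO lists was 42.2%, and was 45.8% at a ratio of 1.2 and 50.0% at 1.5. It was 38.3% with lists of the same length, and 48.2% to 61.5% with a library left out, where fewer lists are compared. Over all kept distal regions it was 39.5% in the main setting and at both ratios. There it was 40.2% with lists of the same length and 49.9% to 55.8% with a library left out. Members were thus below all kept distal regions with lists of the same length and without Snf5 CKO 1 (48.2% against 49.9%). Without Snf5 CKO 2 both shares were 54.3%, and without Control 1 they were 61.5% and 55.8%. The share with more than 1 peak in some library was 6.64%, and was 3.70% with the q limit, 9.03% at a ratio of 1.2, 14.6% at a ratio of 1.5 and 4.51% to 5.86% with a library left out. The cause of these moves was not tested.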

Other observations

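Chromosome X is outside the regions described above. It held 547 kept distal regions, of which 104 (19%) covered more bases in both Snf5 CKO lists than in both Control lists and 161 (29.4%) covered fewer. The highest share that expanded on an autosome was 15.8%, on chromosome 10. No test of this difference was run.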
